A study of Rattus norvegicus with 18 samples.

Results

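The genes described are ribosome biogenesis factors, the proteins that transcribe ribosomal RNA, modify and cut it, and assemble it with ribosomal proteins. Of 45 gene symbols listed for this role, 42 had a row in the deposited expression table of 17303 rows, and 40 of those passed the filter on low values that left 10478 rows for testing. Rrp1b, Rrp12 and Tsr1 were not analysed here. Nhp2 was listed at the table's floor of 0.01 FPKM in all 18 libraries, and Heatr1 ran from 0.0305 to 0.237 FPKM, so neither was tested. FPKM is the number of fragments scaled by the length of the gene and by the mapped fragments of the library.

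The study measured polyadenylated RNA in cultured ventricular heart muscle cells of Wistar rats taken on postnatal day 3. There were 18 libraries in 6 groups of 3: Vehicle, phenylephrine (PE) at 10 µM, PE with Senexin A at 10 µM or at 50 µM, and Senexin A alone at 10 µM or at 50 µM. All cultures, the Vehicle ones too, had 48 h of AraC, a nucleoside analog that limits the growth of dividing cells, then 24 h without serum, then 48 h of treatment. PE stimulates the alpha1-adrenergic receptor and makes these cells grow in size without dividing, and Senexin A is a small-molecule inhibitor of the Mediator kinase CDK8 and its close relative CDK19. By its title the study asks how CDK8 kinase activity shapes transcription in the hypertrophic response. The labels do not say whether replicates were separate cultures or litters, so the p-values speak only of the spread among these libraries, which may be technical.

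Ribosome production begins in the nucleolus, where RNA polymerase I transcribes one long precursor of the ribosomal RNAs. Small nucleolar ribonucleoproteins then guide its methylation (box C/D) and pseudouridylation (box H/ACA). A large assembly called the small subunit processome folds and cuts the part that becomes the small subunit, while other factors build the large subunit. Growth of heart muscle cells under adrenergic drive is known to come with more ribosome synthesis, and many of these genes are known targets of the transcription factor Myc.

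As a check of the tissue, 8 cardiomyocyte markers of 9 listed were in the table, and their summed level ran from 32343 FPKM in a Vehicle library to 99526 FPKM in a PE library. The 9 fibroblast markers summed to between 614 and 3200 FPKM and the 8 endothelial markers to between 2.85 and 10.2 FPKM, with Cdh5, Kdr and Vwf below 1 FPKM in every library. Rpl7a and Rpl8, ribosomal protein genes that every cell uses, were listed at the floor in all 18, so a low row alone does not show that a gene is silent. The number of reads per library was not given. Steps between the lowest values placed relative depth between 0.833 and 1.11 of that of Vehicle replicate 2, so no library was much shallower than another. FPKM is a share of the mapped fragments, so a change in total RNA per cell cannot be seen in it, and in such bulk samples fewer cells of a type and less RNA per cell cannot be told apart.

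The factors rose together under 50 µM Senexin A, with PE and without it, and moved little under PE or under 10 µM. With PE, 50 µM raised 36 of the 40 tested factors and lowered 1, at an adjusted p under 0.05 by limma's test with Benjamini-Hochberg adjustment over all genes (the meaning of "called" below). Over all 10478 genes, 29.3% were called higher and 27.4% lower in that comparison. The factors' median log2 fold change was 0.53, against 0.00 for all genes. Without PE, 50 µM raised 32 of 40 and lowered 1, where the shares over all genes were 30.5% and 30.2%, and the median was 0.47 against -0.01. All fold changes were taken between log2(FPKM + 1) values, where the added 1 makes changes of weakly expressed genes look smaller. Groups did not overlap for 37 factors that were higher and 1 that was lower with PE (31.8% and 30.3% of all genes), and for 32 and 1 without (32.6% and 32.2%).

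**Figure D1:**
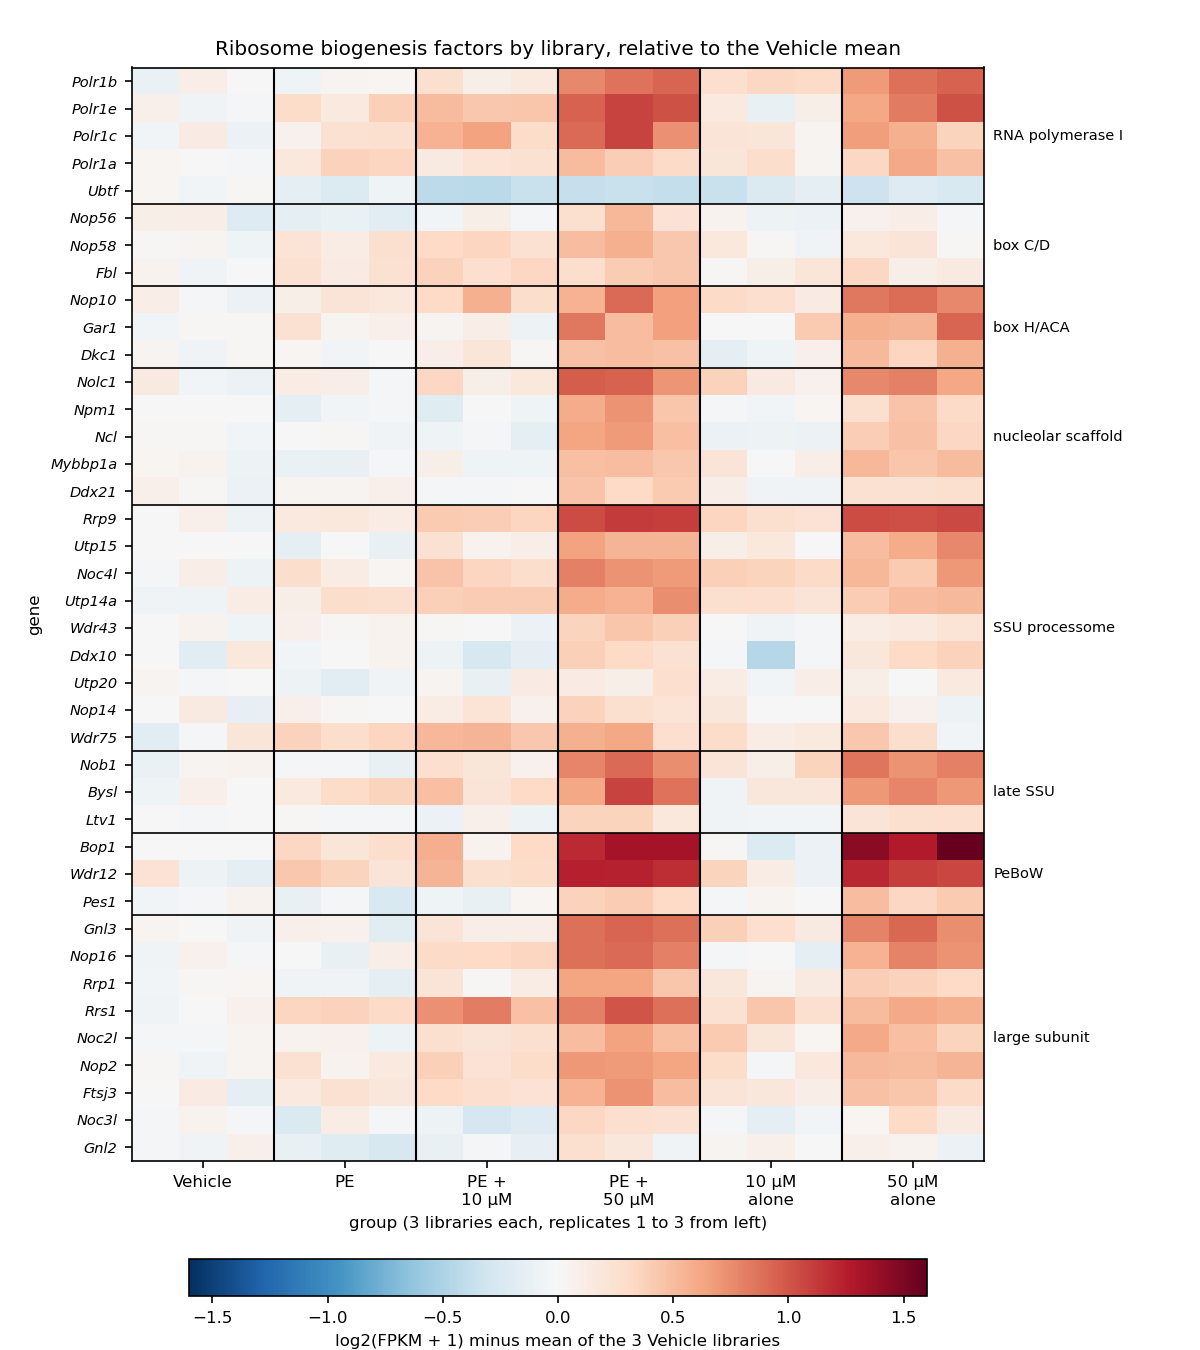
Level of each of the 40 tested factors (rows, ordered by role and by response) in each of the 18 libraries (columns), as log2(FPKM + 1) minus the mean of the 3 Vehicle libraries. Red fills most rows in both 50 µM groups, and Ubtf is the row that stays blue under Senexin A.

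The summed level of the 42 rows showed the same split. It was 1739, 1731 and 1694 FPKM in Vehicle, 1734, 1760 and 1753 FPKM in PE, and 1825, 1876 and 1784 FPKM in PE with 10 µM. At 50 µM it was 2625, 2797 and 2474 FPKM with PE and 2339, 2438 and 2315 FPKM alone, and with 10 µM alone it was 1799, 1746 and 1761 FPKM. Each of the 6 libraries with 50 µM lay above each of the other 12. Npm1 and Ncl alone held between 37.3% and 43.9% of this sum in each library, so those genes weigh heavily in it, whereas the counts above weigh every gene alike.

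Among RNA polymerase I and its factors, 50 µM raised 3 of 5 and lowered 1 with PE, and raised 4 and lowered 1 without. Polr1b encodes the second-largest subunit of the enzyme (rn5 chr3:128358263-128382727, as the authors' table gives it). Its level was 4.20, 5.03 and 4.57 FPKM in Vehicle and 4.33, 4.76 and 4.72 FPKM in PE. It was 8.48, 9.16 and 9.62 FPKM in PE with 50 µM and 7.97, 9.31 and 9.73 FPKM with 50 µM alone, so the 50 µM libraries did not overlap with those without the inhibitor. The fold change was 0.85 ± 0.09 (log2, SE) with PE and 0.84 ± 0.09 alone, with limma adjusted p of 1.05e-06 and 1.01e-06. Polr1c, a subunit shared with RNA polymerase III, rose by 0.72 with PE and 0.53 alone. Polr1e, a subunit that helps the enzyme start and elongate, rose by 0.74 and 0.82.

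Polr1a, the largest and catalytic subunit, had a log2 fold change of 0.11 ± 0.09 at 50 µM with PE (adjusted p = 0.344), and rose by 0.47 ± 0.09 at 50 µM alone. PE itself had raised it, from 5.88 ± 0.14 (SD, n = 3) in Vehicle to 7.45 ± 0.64 FPKM. The PE with 50 µM libraries, at 8.80, 8.03 and 7.50 FPKM, overlapped with those of PE, at 6.72, 7.90 and 7.73 FPKM.

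Ubtf went the other way. It encodes UBF, the DNA-binding factor that keeps ribosomal genes open for RNA polymerase I (rn5 chr10:90036607-90051350). The Vehicle libraries held 32.5, 30.7 and 32.1 FPKM, and those of PE 28.7, 27.2 and 30.2 FPKM. With PE, 10 µM gave 23.5, 23.4 and 24.6 FPKM and 50 µM gave 24.3, 24.6 and 24.2 FPKM. Alone, 10 µM gave 24.6, 27.0 and 28.7 FPKM and 50 µM gave 24.9, 27.4 and 26.6 FPKM. Every library with Senexin A was below all libraries of its own control, at both doses. Ubtf fell by 0.26 and 0.23 (log2) with PE at 10 and 50 µM, and by 0.24 and 0.26 without PE, each with an SE of 0.07. The limma adjusted p-values were 0.0136, 0.00775, 0.02 and 0.00245 in that order. The falls at 50 µM were called under every processing alternative tried, whereas those at 10 µM were lost in some, for example without PE replicate 3 with PE (adjusted p = 0.0697) and without 10 µM replicate 1 alone (adjusted p = 0.0929). The 50 µM and 10 µM levels did not differ beyond their error, with differences of 0.03 ± 0.07 with PE and -0.02 ± 0.07 without.

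**Figure D2:**
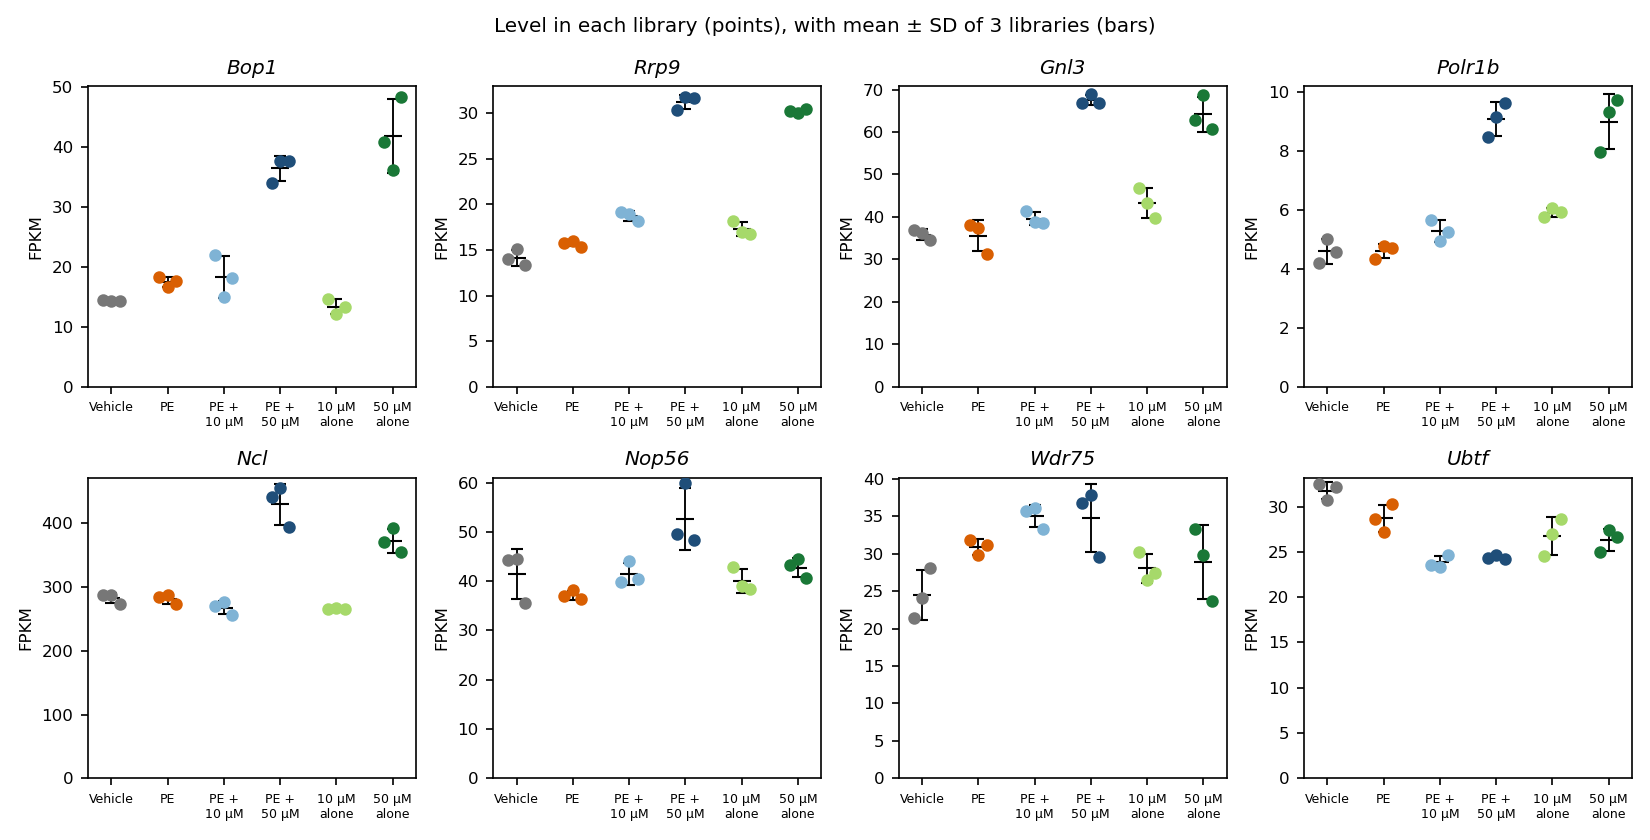
Level in FPKM of 8 factors in each library (points, replicates 1 to 3 from left), with the mean and SD of each group of 3. Bop1, Rrp9, Gnl3, Polr1b and Ncl stand higher in both 50 µM groups, Nop56 only with PE by its test, Wdr75 overlaps with its controls, and Ubtf is lower at both doses.

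In the box C/D particles, 2 of 3 members rose at 50 µM with PE and 1 without. Nop56 and Nop58 are the paired core proteins of box C/D particles, and Fbl (fibrillarin) is their methyltransferase. Nop56 read 36.9, 38.2 and 36.3 FPKM in PE and 49.5, 59.8 and 48.4 FPKM in PE with 50 µM, which do not overlap. Without PE it read 44.2, 44.5 and 35.6 FPKM in Vehicle and 43.3, 44.4 and 40.5 FPKM with 50 µM, which do. Its fold change was 0.48 ± 0.09 with PE (adjusted p = 0.000317) and 0.05 ± 0.09 without (adjusted p = 0.66). The table has an overlapping row, Idh3B, whose reads could be counted in part for Nop56, since use of strand was not stated. At 50 µM the Idh3B row had 0.18 with PE (limma adjusted p = 0.271) and rose by 0.74 without (limma adjusted p = 0.000247). Rows of Spns2, Samd11 and Dnali1 likewise overlap with Mybbp1a, Noc2l and Gnl2, at no more than 3.44, 8.17 and 0.29 FPKM. Nop58 rose by 0.30 with PE and had 0.14 without (adjusted p = 0.111).

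Fbl moved least of the box C/D members at 50 µM with PE. It read 51.9, 47.8 and 51.5 FPKM in PE and 53.1, 58.0 and 59.2 FPKM in PE with 50 µM, so that every treated library was above every PE one, by a small margin. The fold change of 0.17 ± 0.07 was not called (adjusted p = 0.058), though it was with the replicate number as a block (adjusted p = 0.0402). Without PE it was called at 0.19 ± 0.07, and that call was lost under quantile normalization (adjusted p = 0.655).

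All 3 tested box H/ACA members rose in both 50 µM comparisons. Nop10, the smallest of them, read 98.7, 107 and 104 FPKM in PE and 136, 175 and 147 FPKM in PE with 50 µM. It rose by 0.55 ± 0.09 with PE and 0.84 ± 0.09 alone. Gar1 rose by 0.54 and 0.68. Dkc1, the pseudouridine synthase, read 52.9, 50.4 and 51.4 FPKM in PE and 71.9, 73.2 and 71.8 FPKM with 50 µM, a rise of 0.48 ± 0.07, and it rose by 0.48 ± 0.07 without PE too. The table places its Dkc1 row on rn5 chromosome 1 while the current RefSeq annotation has the gene on another chromosome, so its values are uncertain.

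All 5 members of the nucleolar scaffold rose at 50 µM in both backgrounds. Ncl (nucleolin) and Npm1 (nucleophosmin), abundant proteins that chaperone ribosomal RNA and its particles, had the highest levels of all factors. Ncl read 288, 288 and 274 FPKM in Vehicle and 284, 287 and 273 FPKM in PE. It read 441, 455 and 394 FPKM in PE with 50 µM and 371, 393 and 355 FPKM with 50 µM alone, so both 50 µM groups lay apart from the rest. Npm1 read 423, 453 and 461 FPKM in PE and 705, 770 and 638 FPKM in PE with 50 µM, a rise of 0.66 ± 0.08. Without PE it went from 468 ± 1.67 to 593 ± 41.8 FPKM, a rise of 0.34 ± 0.08. With quantile normalization, the rises of Ncl, Npm1 and Ddx21 without PE were no longer called (adjusted p = 0.105, 0.468 and 0.0705), and those with PE were.

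Nolc1, a chaperone of small nucleolar particles, rose most in this class. It read 32.5, 32.2 and 29.6 FPKM in PE against 59.2, 58.3 and 49.5 FPKM in PE with 50 µM, a rise of 0.80 ± 0.10, and rose by 0.73 ± 0.10 alone. Ddx21, an RNA helicase, rose least, from 37.8, 37.9 and 38.9 FPKM to 50.9, 46.1 and 49.1 FPKM, a rise of 0.34 ± 0.06. Mybbp1a, a nucleolar Myb-binding protein, rose by 0.56 with PE and 0.49 alone.

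In the small subunit processome, 8 of the 9 tested members rose at 50 µM with PE and 6 without, and none was called lower. Rrp9, a protein of the U3 particle that docks on the precursor RNA, had the smallest adjusted p of all the factors in both comparisons (rn5 chr8:114544185-114552838). It read 14.0, 15.1 and 13.4 FPKM in Vehicle, 15.8, 16.0 and 15.4 FPKM in PE, and 30.3, 31.8 and 31.6 FPKM in PE with 50 µM. With 50 µM alone it read 30.2, 30.0 and 30.5 FPKM. The rise was 0.95 ± 0.06 with PE and 1.05 ± 0.06 alone, with limma adjusted p of 6.59e-09 and 2.69e-09, and the 50 µM levels were about the same in both backgrounds.

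The other members of the processome rose less. With PE, Utp15 rose by 0.67, Noc4l by 0.58, Utp14a by 0.42, Wdr43 by 0.35, Ddx10 by 0.31, Utp20 by 0.27 and Nop14 by 0.25. With single libraries left out, the call with PE was lost for Ddx10 in 4 of 6 cases (adjusted p up to 0.0852, without 50 µM replicate 1), for Utp20 without PE replicate 2 (0.0714) or 50 µM replicate 3 (0.0833), and for Nop14 without PE replicate 3 (0.0607) or 50 µM replicate 1 (0.083). Without PE, Utp20 and Nop14 had 0.09 ± 0.09 and 0.05 ± 0.09 and were not called, and the small rises of Wdr43 (0.17 ± 0.06) and Ddx10 (0.29 ± 0.11) were lost in several alternatives, as without 50 µM replicate 3 (adjusted p = 0.0858 and 0.113). With PE, Wdr75 had the smallest fold change of this class. It read 31.8, 29.8 and 31.1 FPKM in PE and 36.8, 37.9 and 29.5 FPKM in PE with 50 µM, and the fold change of 0.16 ± 0.12 was not called (adjusted p = 0.281).

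All 3 tested late small subunit factors rose in both 50 µM comparisons. Nob1 is the nuclease that makes the final cut of small-subunit RNA in the cytoplasm. It read 27.9, 27.7 and 26.0 FPKM in PE and 49.3, 53.7 and 48.0 FPKM in PE with 50 µM, a rise of 0.86 ± 0.08. Without PE it rose by 0.80 ± 0.08. Bysl, which binds the maturing small subunit, rose by 0.59 and 0.72. Ltv1, an assembly factor that leaves late, read 28.7, 27.7 and 28.0 FPKM in PE and 36.6, 36.6 and 32.1 FPKM with 50 µM, a rise of 0.31 ± 0.06, and rose by 0.24 ± 0.06 without PE. The lowest treated library of each of these 3 genes was above the highest PE library.

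Pes1, Bop1 and Wdr12 form the PeBoW complex, which is needed to process the large-subunit RNAs, and all 3 rose at 50 µM in both backgrounds. Bop1 had the largest fold change of all factors in both 50 µM comparisons (rn5 chr7:117502159-117525973). It read 14.4, 14.3 and 14.3 FPKM in Vehicle, 18.2, 16.6 and 17.6 FPKM in PE, and 34.0, 37.7 and 37.6 FPKM in PE with 50 µM. With 50 µM alone it read 40.9, 36.2 and 48.4 FPKM. The rise was 1.02 ± 0.12 with PE and 1.47 ± 0.12 without. Scx, a tendon transcription factor gene, overlaps with this row, and its own row fell by 0.49 and 0.61 (log2) in the same comparisons, so the rows moved in opposite directions.

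Wdr12 rose from 33.3, 31.7 and 28.3 FPKM in PE to 59.0, 58.7 and 56.6 FPKM in PE with 50 µM, by 0.88 ± 0.12, and by 1.13 ± 0.12 without PE. Pes1 rose less than its partners, from 28.0, 30.0 and 25.7 FPKM to 39.6, 40.8 and 38.4 FPKM, by 0.49 ± 0.07, and by 0.41 ± 0.07 without PE. The 3 genes of the complex thus moved in one direction, with fold changes of different size that were not tested against each other.

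All 9 tested members of large subunit assembly rose at 50 µM with PE, and 7 of 9 without. Gnl3 encodes nucleostemin, a GTPase of the nucleolus (rn5 chr16:7026163-7032102). It read 38.0, 37.5 and 31.3 FPKM in PE and 66.7, 69.0 and 66.9 FPKM in PE with 50 µM, and 62.8, 68.8 and 60.8 FPKM with 50 µM alone. It rose by 0.91 ± 0.08 with PE and 0.82 ± 0.08 without. Nop16 followed, with rises of 0.87 and 0.69. Rrp1 rose by 0.66 and 0.36, Rrs1, which brings in the 5S particle, by 0.56 and 0.56, Noc2l by 0.52 and 0.48, Nop2, a methyltransferase of large-subunit RNA, by 0.52 and 0.52, and Ftsj3, another methyltransferase, by 0.40 and 0.40.

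Noc3l rose by 0.32 with PE, a call lost without PE replicate 1 (adjusted p = 0.0571), and had 0.17 ± 0.10 without (adjusted p = 0.146). Gnl2, a GTPase needed for export of the large subunit, rose least. It read 31.8, 30.2 and 28.8 FPKM in PE and 41.5, 39.3 and 33.3 FPKM in PE with 50 µM, a rise of 0.31 ± 0.08. Without PE its groups overlapped, with 33.7, 33.4 and 36.7 FPKM in Vehicle and 36.5, 35.9 and 32.4 FPKM at 50 µM, and a fold change of 0.01 ± 0.08.

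**Figure D3:**
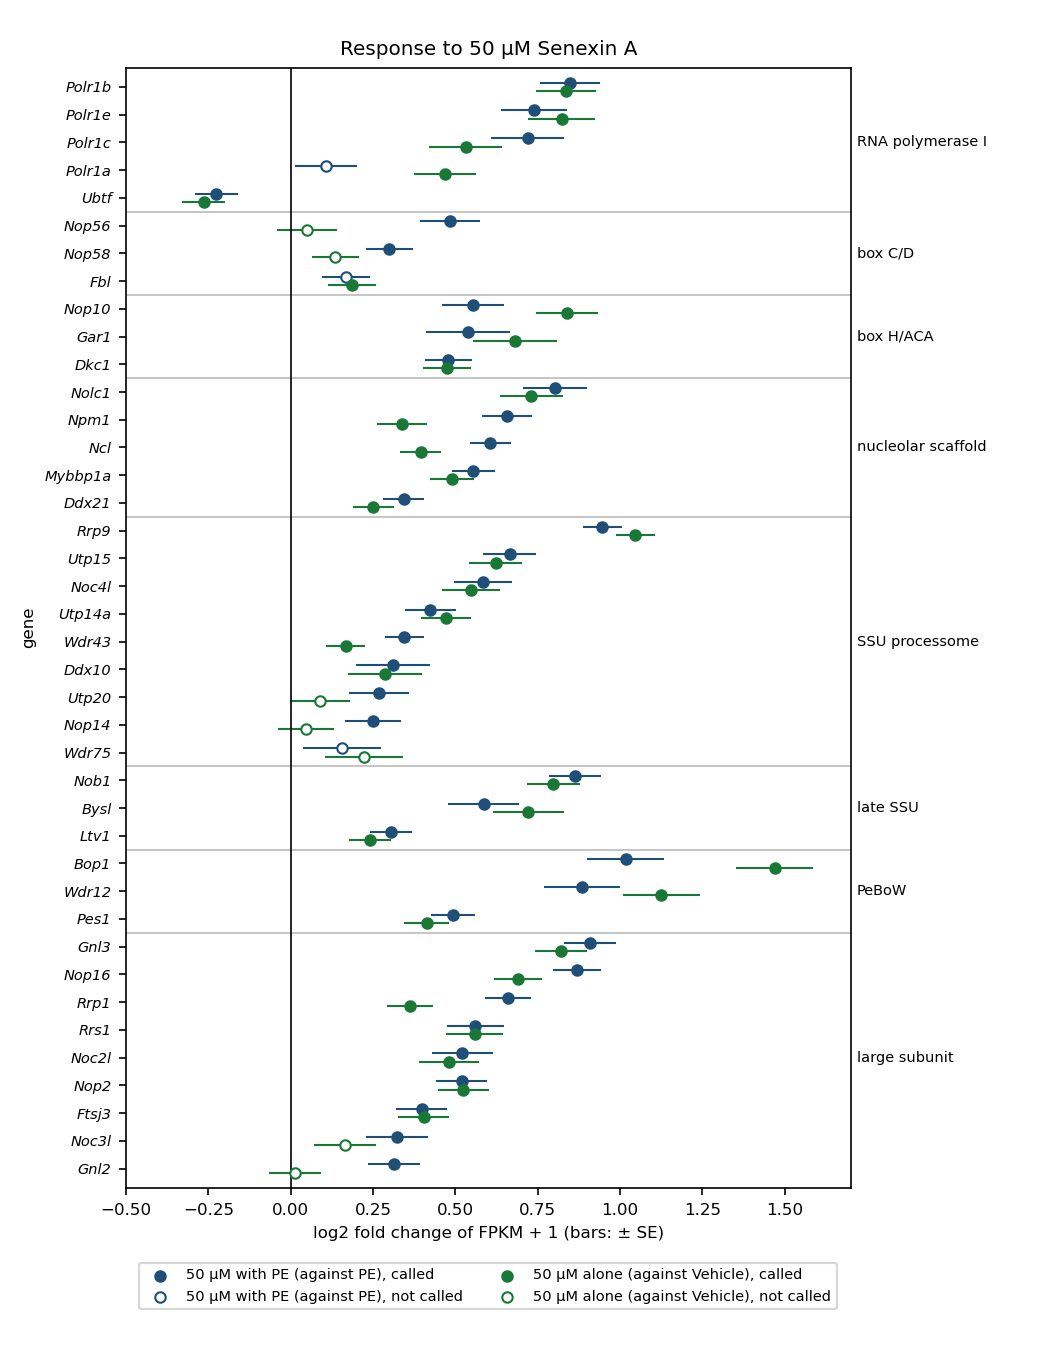
Log2 fold change of FPKM + 1 for each factor at 50 µM, with PE (blue, against PE) and alone (green, against Vehicle); bars are ± SE of the fit to 3 libraries a group, and filled points were called. Bop1 reaches 1.47 alone, and Ubtf is the only point called below 0 in either comparison.

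Most factors called higher at 50 µM were called in both backgrounds, but with so many of the 40 called in each, a large overlap is forced. Of the 36 factors raised by 50 µM with PE and the 32 raised without, 30 were in both, 83.3% of the first and 93.8% of the second. This count therefore does not show that the same factors respond in both. Gnl2, Noc3l, Nop14, Nop56, Nop58 and Utp20 were called only with PE, and Fbl and Polr1a only without. Across the 40 factors the 2 sets of fold changes, which use different libraries, had a Pearson r of 0.85, and across all 10478 genes it was also 0.85, so this likeness was no greater for the factors. Genes are not independent replicates, so the value is a description.

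The difference between the responses to 50 µM in the 2 backgrounds was tested directly. No factor was called in this interaction, where 7.01% of all genes were called in either direction. An unadjusted p under 0.05 was found for 9 of the 40 factors and for 2300 of all 10478 genes. The differences (response with PE minus response without) ran from -0.45 ± 0.17 for Bop1 to 0.43 ± 0.13 for Nop56, which had the smallest limma adjusted p, 0.0554. With the replicate number as a block, 5 factors were called: Nop56 (adjusted p = 0.0103), Npm1 (0.0294), Rrp1 (0.039) and Ncl (0.041) with a larger response under PE, and Bop1 (0.0451) with a smaller one. Over all genes, that fit called 6.24% with a larger response under PE and 9.89% with a smaller one. Without Vehicle replicate 3, Nop56 alone was called (adjusted p = 0.0217), and without replicate 3 of PE with 50 µM, Npm1 (0.0497), Gnl2 (0.0389) and Rrp1 (0.0426) were. Of the 10454 and 10469 genes tested in those fits, 391 and 477 were called. At 10 µM none was called, where 0.305% of all genes were, and the block also gave 0. In the fit without the block, 1 factor and 1018 of all 10478 genes had an unadjusted p under 0.05.

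Most of the response lay between 10 and 50 µM. With PE, 10 µM raised Rrp9, Nop16, Rrp1 and Rrs1 and lowered Ubtf, 4 and 1 of 40, where 9.13% of all genes were called higher and 7.84% lower. Alone, 10 µM raised Polr1b, Rrp9, Noc4l, Utp14a, Gnl3 and Rrs1 and lowered Ubtf, where 9.17% and 7.01% of all genes were called. With PE 1 call was left without PE replicate 3 and 3 without replicate 1 of PE with 10 µM, and alone 1 to 4 of the 7 calls were left without any of the Vehicle libraries or without 10 µM replicate 1 or 2, the fewest (1) without the last of these. These counts are near the background shares. The median fold changes of the factors were 0.11 and 0.10, against 0.01 and -0.01 for all genes. Above 0 were 30 and 28 of the 40, against 5433 and 5129 of all 10478 genes. With the replicate block, Polr1c, Nop10 and Nob1 were added with PE (adjusted p = 0.0102, 0.0307 and 0.0431), giving 7 higher and 1 lower, and Nop10 and Nolc1 without (adjusted p = 0.0335 and 0.0369). In those fits 14.7% and 14.4% of all genes were called higher, and 13.2% and 11.9% lower.

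Nop16 showed a step at each dose with PE. Its level was 46.9 ± 3.68 FPKM in PE, 59.1 ± 1.01 FPKM with 10 µM and 86.3 ± 3.38 FPKM with 50 µM. It rose by 0.33 ± 0.07 at 10 µM (adjusted p = 0.00621), the one factor called there under every alternative. Alone at 10 µM it stayed at 45.1 ± 2.69 FPKM against 47.0 ± 1.96 FPKM in Vehicle, and the difference between those responses was 0.39 ± 0.10 (adjusted p = 0.145). Rrs1 rose at 10 µM in both backgrounds, by 0.33 and 0.31, and by 0.23 and 0.25 more from 10 to 50 µM. Each of these calls of Rrs1 was lost in some alternatives. The rise at 10 µM with PE was lost without PE replicate 3 or replicate 1 or 2 of PE with 10 µM (adjusted p = 0.0584, 0.0628 and 0.0782), and the one alone without Vehicle replicate 1 or 2 or 10 µM replicate 2 (adjusted p = 0.0755, 0.063 and 0.111). From 10 to 50 µM with PE it was lost with 4 of the 6 libraries left out in turn, with a fold change of 0.13 (adjusted p = 0.24) without replicate 3 of PE with 10 µM, and without PE it was lost with another 4 of 6 (adjusted p up to 0.0913, without 10 µM replicate 1).

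Compared directly, 50 µM was above 10 µM in 34 of 40 factors with PE and in 30 without, with none below. Over all genes 21.3% and 25.4% were called higher in those comparisons, and 19.9% and 24.9% lower. These comparisons share their 50 µM libraries with the ones above. The group means rose in order from no inhibitor through 10 µM to 50 µM for 29 factors with PE and 26 without. No share over all genes was computed for this order. All 3 libraries at 50 µM lay above all 3 at 10 µM for 32 and 31 factors, against 2640 and 2895 of all 10478 genes. They lay below for 0 factors in each background, against 2528 and 2846 of all genes. The factors' median fold change at 10 µM was 21.5% of their median at 50 µM in each background.

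**Figure D4:**
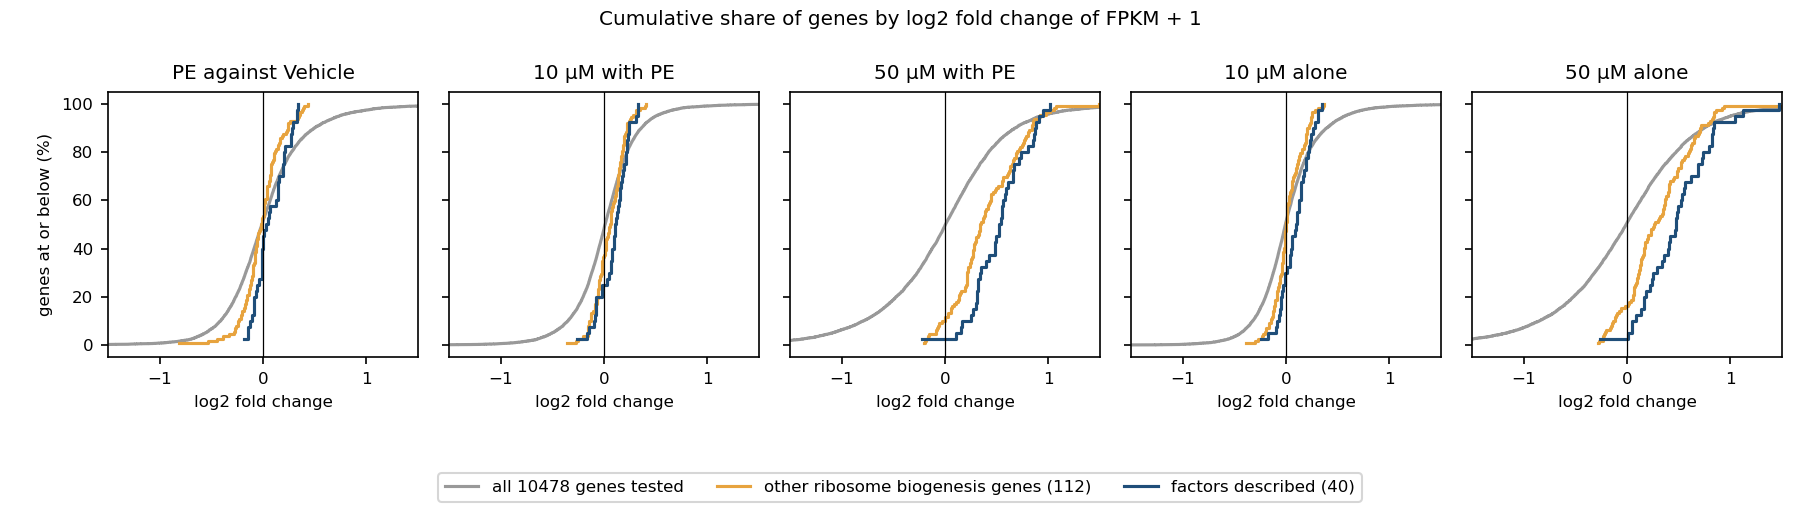
Cumulative share of genes (%) by log2 fold change of FPKM + 1, in 5 comparisons, for all 10478 genes tested, 112 other ribosome biogenesis genes and the 40 factors; the axis ends at -1.5 and 1.5. At 50 µM the factors' curve lies to the right of that of all genes, with medians of 0.53 and 0.47, while under PE the medians are 0.04 and -0.01.

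Under PE alone the factors moved little. Called higher were 8 of 40, where 17.9% of all genes were called higher, and none was called lower, where 12.7% were. They were Polr1a, Polr1e, Fbl, Nop58, Utp14a, Wdr75, Wdr12 and Rrs1, with fold changes between 0.20 and 0.34, and the median over the 40 was 0.04. Groups did not overlap for 12 factors that were higher and 5 that were lower, against 25.7% and 22.0% of all genes. Rrs1 was the one factor called under every alternative. It read 16.3, 16.9 and 17.9 FPKM in Vehicle and 21.8, 22.2 and 21.3 FPKM in PE, a rise of 0.34 ± 0.09 (adjusted p = 0.00746).

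The other 7 calls under PE were lost in 1 or more alternatives. With any 1 of the 6 Vehicle and PE libraries left out, 2 to 4 factors were called, of which 1 to 4 were among the 8, the fewest (1) without Vehicle replicate 2. In those fits 13% to 15.9% of all genes were called higher and 7.7% to 11.3% lower. With median-ratio scaling 2 factors were called, where 17.3% of all genes were called higher and 13.9% lower. With the replicate block 12 were called, 11 higher and 1 lower, with Bysl, Bop1 and Ftsj3 added as higher and Gnl2 as lower (adjusted p = 0.0372, 0.0465, 0.0208 and 0.0449). In that fit 23% of all genes were called higher and 19.2% lower. Under quantile normalization the split was 4 higher and 5 lower, with Ncl and Npm1 among the lower (limma adjusted p = 0.000192 and 0.000302), so no direction is given for the set under PE. In that fit 15.2% of all genes were called higher and 16.6% lower.

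Other ribosome biogenesis genes, from a wider list of 127, had 114 rows and 112 tested, and moved the same way. With PE, 50 µM raised 75 and lowered 2, with a median of 0.34, and without PE it raised 59 and lowered 2, with a median of 0.27. Over all genes 29.3% rose and 27.4% fell with PE, and 30.5% rose and 30.2% fell without, with medians of 0.00 and -0.01. Under PE, 10 rose and 8 fell, below the 17.9% and 12.7% of all genes, and with 1 library left out 5 to 11 rose and 3 to 8 fell. The largest rise with PE was that of Riok3, a kinase of late small-subunit particles, from 33.6 ± 2.44 to 96.6 ± 9.85 FPKM, by 1.49 ± 0.09. Ebna1bp2 rose by 1.08 ± 0.33, from 0.727 ± 0.235 to 2.81 ± 1.55 FPKM. Its mean was below 1 FPKM in every group without 50 µM. At 50 µM alone its fold change of 0.32 ± 0.33 was not called (limma adjusted p = 0.413). Sdad1, of large-subunit export, rose by 1.05 ± 0.11, and Shq1, a chaperone of Dkc1, by 1.01 ± 0.12. The 2 that fell were Imp3, a processome protein, by 0.20 ± 0.08, and Xrn2, a nuclease that trims ribosomal RNA, by 0.17 ± 0.06. With any 1 library left out, 62 to 75 rises and 0 or 1 falls were called with PE. In those fits 25.9% to 27.6% of all genes were called higher and 24.2% to 25.9% lower.

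Fold changes were above 0 for 53 of these 112 genes under PE and for 99 with 50 µM added, so opposite signs were common. Over all 10478 genes, 5088 and 5279 were above 0. Both comparisons use the PE libraries, with opposite sign. Exosc5, a subunit of the RNA exosome, fell by 0.82 ± 0.10 under PE, from 17.2 ± 0.41 to 9.40 ± 1.14 FPKM, and stood at 17.2 ± 1.26 FPKM in PE with 50 µM. At 50 µM alone it stood at 27.3 ± 1.65 FPKM, a rise of 0.63 ± 0.10. Its interaction of 0.17 ± 0.14 was not called (limma adjusted p = 0.503). Exosc8, of the same complex, fell by 0.54 ± 0.14 under PE and rose by 0.55 ± 0.14 with 50 µM added. At 50 µM alone its fold change was -0.16 ± 0.14 (limma adjusted p = 0.325). The largest called rises under PE were those of Emg1, a methyltransferase of small-subunit RNA, by 0.43 ± 0.10, and Mrto4, of the large subunit stalk, by 0.39 ± 0.07, and both rose further with 50 µM, by 0.70 and 0.72. In the interaction at 50 µM, Shq1 (0.64 ± 0.17, limma adjusted p = 0.0307) and Exosc8 (0.72 ± 0.20, adjusted p = 0.0386) were the 2 called of 112, and between 0 and 2 were called with 1 library left out.

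The products that these factors assemble rose too at 50 µM, but without PE the extent depended on the normalization. Of 81 rows for cytosolic ribosomal proteins, a list made after values were seen, 77 were tested. At 50 µM with PE 65 rose and none fell, with a median of 0.48, and without PE 72 rose and none fell, with a median of 0.57. Over all genes 29.3% rose and 27.4% fell with PE, and 30.5% rose and 30.2% fell without. Under quantile normalization these counts were 59 and 0 with PE, and 28 higher and 2 lower without. In that fit 29.6% of all genes were called higher and 26.7% lower with PE, and 31% and 28.6% without. The rises without PE were thus near the background share, and the falls below it. Under PE 9 were called higher and none lower (2 to 5 higher with 1 library left out), but quantile normalization turned that to none higher and 42 lower, so no direction is given. Over all genes 17.9% were called higher and 12.7% lower under PE, and with quantile normalization 15.2% and 16.6%. Many of these genes have near-identical pseudogene copies, which makes their values uncertain.

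Markers of other cell states moved with the same groups. Over all genes, 27.4% were called lower at 50 µM with PE and 30.2% without. All 15 cycling cell markers fell at 50 µM with PE, with a median of -1.76, and all 15 without, with a median of -2.12. Their summed level was 547 to 731 FPKM in Vehicle, 797 to 955 in PE, 767 to 835 in PE with 10 µM, 250 to 313 in PE with 50 µM, 439 to 563 with 10 µM alone and 141 to 183 with 50 µM alone. The factors thus rose in the groups in which the cycling markers were lowest. The part of these markers in the result was not tested.

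**Figure D5:**
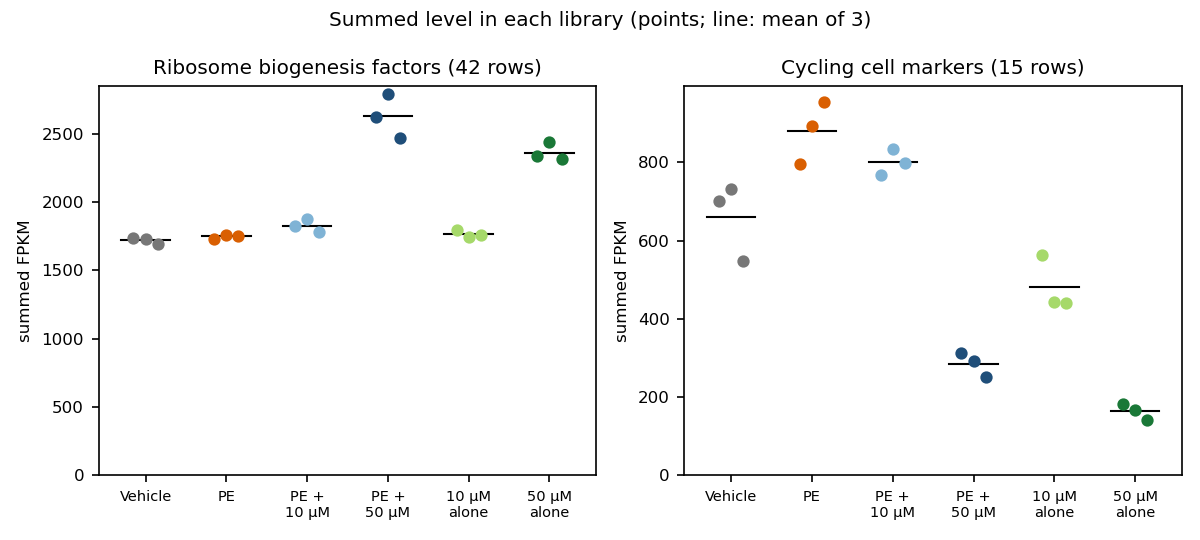
Summed FPKM of the 42 rows of ribosome biogenesis factors (left) and of 15 cycling cell markers (right) in each library, with lines at the mean of 3. The 50 µM libraries are the highest on the left, from 2315 to 2797 FPKM, and the lowest on the right, from 141 to 313 FPKM.

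Counts of cell type markers are to be read beside the shares over all genes, here and for the lists below. Over all genes, 27.4% fell and 29.3% rose at 50 µM with PE, and 30.2% fell and 30.5% rose without. Of 8 tested cardiomyocyte markers, 4 fell and 1 rose at 50 µM with PE, and 2 fell and 3 rose without. Their sum ran from 81730 to 99526 FPKM in PE and from 41581 to 52983 in PE with 50 µM, against 32343 to 46862 in Vehicle and 32421 to 51423 with 50 µM alone. Of 9 fibroblast markers 8 were tested, Col1a2 being below 1 FPKM throughout, and 2 fell in each 50 µM comparison. Their sums were 1176 to 1949 FPKM in PE and 614 to 1218 in PE with 50 µM, against 1763 to 3071 in Vehicle and 966 to 1326 with 50 µM alone.

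Sums of the other lists were small or varied between replicates. Of 4 tested endothelial markers, 2 fell with PE and 1 without, and the list summed to 7.32 to 10.2 FPKM in PE, 3.38 to 5.48 in PE with 50 µM, 6.45 to 9.31 in Vehicle and 2.85 to 6.13 with 50 µM alone. Of 7 smooth muscle and pericyte markers 1 fell with PE and 2 without, with sums of 299 to 502, 155 to 215, 208 to 360 and 112 to 217 FPKM in those groups. Of 6 tested macrophage markers none was called with PE and 1 fell without, with sums of 19.8 to 89.5, 21.8 to 239, 38.9 to 120 and 31.4 to 181 FPKM. In the 10 µM groups, with PE and alone, the sums were 60889 to 80362 and 44858 to 58983 FPKM for cardiomyocyte and 854 to 1742 and 1651 to 3200 FPKM for fibroblast markers. They were 5.47 to 6.57 and 5.89 to 9.02 FPKM for endothelial, 354 to 577 and 224 to 373 FPKM for smooth muscle and 27.6 to 247 and 75.6 to 396 FPKM for macrophage markers. The part of these differences in the factors' rise was not tested.

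Because the factors moved together, their upstream sequences were read from RefSeq (build GRCr8), which held 38 of the 42 (not Bop1, Gnl2, Rrs1 or Wdr43). The motif searched was CACGTG, the E-box bound by Myc and related factors, which reads alike on both strands. It was in the 250 bases before the start of 8 of the 36 tested factors with an entry (22.2%), of 8.44% of the 8014 tested genes with one, and of 5.59% of all 33469 promoters. Those 8 were Dkc1, Mybbp1a, Utp20, Wdr75, Ltv1, Pes1, Gnl3 and Rrp1. Among the 36, the median fold change at 50 µM with PE was 0.49 for the 8 with the motif and 0.55 for the 28 without. The 4 largest risers that hold it are shown 5′ to 3′ with the motif in capitals, and Rrp9, the largest riser among the entries without it, is shown for contrast. Gnl3 is at chr16:6219783-6220032 on the minus strand, and Rrp1 at chr20:10260330-10260579, Mybbp1a at chr10:57555208-57555457, Pes1 at chr14:83074096-83074345 and Rrp9 at chr8:115995930-115996179 are on the plus strand.
Gnl3: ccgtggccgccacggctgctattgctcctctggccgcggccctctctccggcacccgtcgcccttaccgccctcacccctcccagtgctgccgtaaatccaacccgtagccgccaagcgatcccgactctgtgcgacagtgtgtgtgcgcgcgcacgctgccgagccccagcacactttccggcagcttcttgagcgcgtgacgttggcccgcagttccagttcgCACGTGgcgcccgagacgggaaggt
Rrp1: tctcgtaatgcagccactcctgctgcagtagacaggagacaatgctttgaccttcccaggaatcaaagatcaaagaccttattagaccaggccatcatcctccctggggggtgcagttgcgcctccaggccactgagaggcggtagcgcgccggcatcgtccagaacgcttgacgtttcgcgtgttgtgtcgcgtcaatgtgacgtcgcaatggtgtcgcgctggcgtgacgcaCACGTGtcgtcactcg
Mybbp1a: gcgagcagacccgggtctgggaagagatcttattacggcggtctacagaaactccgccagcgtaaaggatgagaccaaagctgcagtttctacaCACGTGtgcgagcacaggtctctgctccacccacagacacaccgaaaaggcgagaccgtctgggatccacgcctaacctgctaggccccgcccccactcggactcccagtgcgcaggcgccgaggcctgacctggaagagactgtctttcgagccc
Pes1: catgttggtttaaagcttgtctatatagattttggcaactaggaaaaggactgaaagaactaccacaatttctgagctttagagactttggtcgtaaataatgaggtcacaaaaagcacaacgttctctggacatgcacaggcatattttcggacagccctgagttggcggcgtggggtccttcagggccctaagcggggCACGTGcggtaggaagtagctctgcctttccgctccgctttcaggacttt
Rrp9: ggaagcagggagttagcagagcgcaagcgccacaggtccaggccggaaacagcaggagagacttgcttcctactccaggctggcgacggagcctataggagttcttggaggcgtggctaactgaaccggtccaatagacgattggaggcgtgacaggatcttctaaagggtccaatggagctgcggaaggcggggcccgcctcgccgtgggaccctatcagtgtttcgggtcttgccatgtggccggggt
The motif begins 25 bases before the annotated start in Gnl3, 16 in Rrp1, 50 in Pes1 and 156 in Mybbp1a. Rises at 50 µM with PE were 0.91, 0.66, 0.49 and 0.56 in that order, and 0.95 for Rrp9. A match of these letters is a description of the window and no sign of binding.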

How the data were processed

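Polyadenylated RNA of 18 libraries was sequenced after TruSeq RNA V2 preparation, per the labels' protocols. The authors deposited 1 table of FPKM values, made with Bowtie2, Cufflinks and the rn5 build, per the submitters' processing notes; versions, annotation, filters and use of strand are not given in the sources used here. Every value column was mapped to a sample by its name. Reads per library were unknown, so no counting intervals were given.

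The values, as log2(FPKM + 1), went into limma 3.58.1 (variance trend, R 4.3.3). A row was kept if 3 or more libraries had 1 FPKM or more, and all 6 group means were fitted together with 12 residual degrees of freedom. P-values were adjusted over all 10478 genes per comparison by the Benjamini-Hochberg method, and genes were called under 0.05. The 9 comparisons were PE against Vehicle, each dose against its own control, 50 against 10 µM in each background, and the interaction at each dose. Tables and figures used Python 3.11.15, pandas 2.3.3, numpy 2.4.6 and matplotlib 3.10.9.

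The factors, their roles and the gene lists were chosen with earlier results of these data known. Values in each library of PE and of PE with 50 µM, and in part of other groups, are given, within each role, for the factors with the highest and lowest fold change at 50 µM with PE, and for others that a result turns on. Wdr12, Ncl, Polr1a and Rrs1 were added after their values were seen. Of the other ribosome biogenesis genes, the text names up to 4 called rises and 4 falls of largest size at 50 µM with PE, up to 2 and 2 under PE, and those called in the interaction.

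Libraries with the same replicate number deviated together from their group means: r was 0.213 to 0.587 in the 45 such pairs and -0.462 to 0.0949 in the rest, so libraries appear paired by number. The main fit did not use this pairing, so its SEs, p-values and calls ignore it. The labels do not say what the numbers share. A fit with the number as a block was an alternative, as were pseudocounts of 0.1 and 0.5, no filter, a filter of 5 FPKM, median-ratio scaling, quantile normalization, only the compared groups, no variance trend, array weights, and leaving out each library. Libraries of a group correlated with r of 0.986 to 0.992 and none were duplicates.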

Additional observations from a re-analysis of the deposited data

How the results depend on the processing

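The rise at 50 µM kept its direction under every alternative run. With PE 35 to 38 of the factors were called, against 37, and without PE 30 to 33, against 33. No called factor changed sign. Counts under PE and at 10 µM were less stable. Under PE, 8 factors were called, 4 with no filter, 2 with median-ratio scaling, 5 with no variance trend, 12 with the replicate block, and 2 to 4 with each library left out. Quantile normalization gave 4 higher and 5 lower, and moved the share of higher calls among all genes from 58.5% to 47.7%. For 10 µM with PE, 5 were called, 1 with the compared groups only, 8 with the replicate block, and 1 to 6 with each library left out. For 10 µM alone, 7 were called, 1 with the compared groups only, and 2 to 6 with each library left out. The interaction at 50 µM had 0 calls, 1 with a filter of 5 FPKM, 4 with quantile normalization, 5 with the replicate block, 2 with array weights, and 0 to 3 with each library left out. The pairing of replicates also moved counts over all genes, from 1778 to 2924 for 10 µM with PE, 1696 to 2761 for 10 µM alone, 32 to 230 for the interaction at 10 µM and 734 to 1690 at 50 µM. The block changed no count of factors by more than 1.5 times in the other comparisons. The cause of these changes was not tested, apart from fewer samples in the fits that leave libraries out. Absolute depth is unknown and low genes are compressed by the pseudocount.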
